A study of Mus musculus with 16 samples.

Results

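The 2 arms of microRNA (miRNA) miR-151, mmu-miR-151-5p and mmu-miR-151-3p, are described here across 8 sorted mouse cell populations. They are the probes with those 2 names among 604 mouse miRNAs present on both array designs. They were selected on the measured signals of these same arrays, so their levels are given as a description, without a test. RNA was labelled with Cy3 and read on 1-colour Agilent miRNA arrays, 16 in all, with 2 biological replicates per population. All mice were female C57Bl/6 aged 6 weeks, and each replicate was a pool of animals, so the replicates carry no information on single mice.

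The dendritic cells (DC) of the spleen came as pools of 8 mice: CD4+ DC (CD11c+ CD3- CD4+ CD8- B220-), CD8+ DC (CD11c+ CD3- CD4- CD8+ CD86+ B220-) and CD4-CD8- DC (CD11c+ CD3- CD4- CD8-). Plasmacytoid DC (PDC; B220+ CD11c intermediate SiglecH+ CD317+) and Gr1+ monocytes (CD11b+ CD115+ Gr1+) were sorted from bone marrow of 5 mice per pool. The 3 progenitor populations came from marrow of 15 mice per pool and were lineage-negative and CD135+. Of these, common DC progenitors (CDP) were CD117 low CD115+, macrophage and DC progenitors (MDP) CD117+ CD115+, and MP cells, an abbreviation left unexplained in the labels, CD117+ CD115-. Cells were taken without culture. The spleen DC differ from the progenitors in organ and pool size as well as in cell type, and these cannot be told apart in that comparison; PDC and Gr1+ monocytes came from marrow, as the progenitors did, in smaller pools.

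A miRNA hairpin yields a mature strand from either arm, named 5p or 3p, and usually 1 strand accumulates more than the other. Loaded into Argonaute, the mature strand pairs with messenger RNAs mainly through its seed, bases 2 to 8, and lowers their translation and stability. The miR-151 hairpin lies within the gene of focal adhesion kinase (Ptk2), and in human cells its 5p strand has been studied with that kinase in cell migration. The hairpins of miR-28, within the gene Lpp, and of miR-708, within Tenm4, resemble it in sequence.

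The header coordinates place all probes of miR-151 at chr15:73085256-73085307 in build mm9. In the RefSeq gene table, of another build, Mir151 lies inside Ptk2. The array gave miR-151-5p 2 probes of 17 and 18 bases with 10 spots each, and miR-151-3p 4 probes of 11 to 14 bases with 5 spots each. The RefSeq mature sequences (GRCm38.p6) of the miR-28 and miR-708 strands are shown because miR-28 was the only one of these relatives above background on any array. Capitals mark the seed, and the array names miR-28 and miR-28* are taken as miR-28a-5p and miR-28a-3p.
mmu-miR-28a-5p: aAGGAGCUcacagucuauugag
mmu-miR-708-5p: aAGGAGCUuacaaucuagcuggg
mmu-miR-28a-3p: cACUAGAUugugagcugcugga
mmu-miR-708-3p: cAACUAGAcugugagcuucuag
The 5p strands of miR-28a and miR-708 share a seed, and their 3p strands do not.

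The arrays held 116 to 174 miRNAs above background, and no spot was saturated. A miRNA was taken as above background on an array if the deposited calls put 0.5 or more of the spots of any of its probes well above background. Signals were divided by an array factor between 333 and 876, and values under a floor (log2 -5.30 on design 1 and -5.78 on design 2) were raised to it. Myeloid miR-223 was above background on both arrays of every population. Of 5 stem and progenitor miRNAs, all 5 were above background on both arrays of CDP, MDP and MP, 4 in PDC, 2 in CD4+ DC, CD4-CD8- DC and Gr1+ monocytes, and 1 in CD8+ DC; miR-125b-5p was above background on every array. Of 6 epithelial, muscle and stromal miRNAs, at most 1 was above background on both arrays of any population. Plasmacytoid marker miR-128 had log2 values of -1.10 and -0.43 in PDC and between -4.39 and -3.93 in the 3 spleen DC populations. The other miRNA of that list, miR-150, did not separate PDC: its mean was -0.83 in PDC, -0.73 in CD4-CD8- DC, -1.13 in CD8+ DC and -1.96 in CD4+ DC.

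miR-151-5p was above background on all 8 DC arrays and on none of the other 8. CD4+ DC had unscaled processed signals of 338.8 and 271.5. CD8+ DC had 90.0 and 120.0. CD4-CD8- DC had 188.7 and 117.9, and PDC had 49.0 and 110.8. Every one of the DC arrays was therefore far above the Gr1+ monocyte, CDP, MDP and MP arrays, whose signals ran between -0.46 and 6.81. A gap between these sets of arrays was not particular to miR-151-5p. In scaled log2 signal, miR-29a lay at 1.40 or more on the DC arrays and at 0.36 or less on the others. The share of all miRNAs with such a gap was not counted. In spots, 153 of 153 used spots were well above background on the DC arrays and 1 of 157 on the other arrays. That spot was on MP replicate 2, which the scanner software's own gene-level call also counted as detected, giving 9 of 16 arrays. With bulk RNA, fewer cells carrying the miRNA and less of it per cell cannot be told apart.

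**Figure D1:**
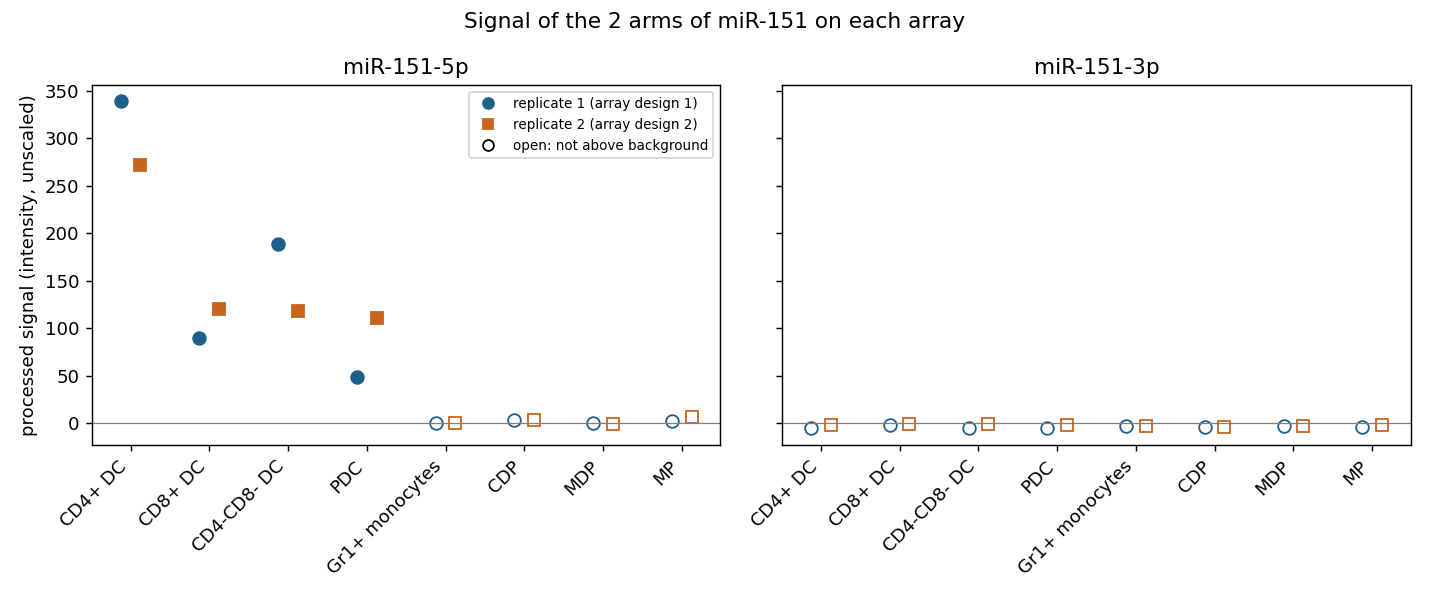
Unscaled processed signal of miR-151-5p (left) and miR-151-3p (right) on each of the 16 arrays; filled points are above background and open points are not. miR-151-5p lay between 49.0 and 338.8 on the 8 DC arrays and between -0.46 and 6.81 on the other 8, while miR-151-3p lay between -5.44 and -0.66 throughout.

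After scaling, miR-151-5p was highest in CD4+ DC, with a log2 signal of -1.23 ± 0.07 (SD, n = 2 here and below). CD4-CD8- DC followed at -1.89 ± 0.48, CD8+ DC at -2.04 ± 0.12 and PDC at -3.10 ± 0.17. The wide spread of CD4-CD8- DC came from values of -1.55 and -2.23 in replicates 1 and 2. CD4+ DC exceeded CD4-CD8- DC by 0.66 (within designs 0.36 and 0.95), but by 0.43 without CD4-CD8- DC replicate 2. The 0.66 is more than the residual SD of 0.24 over all 16 arrays, 8 of them at the floor. It is also more than the 0.30 of the 8 DC arrays alone. CD4-CD8- DC minus CD8+ DC was 0.15, with 0.58 on design 1 and -0.28 on design 2, so they were not separated beyond their spread in this scaling. That difference was 0.87 with every shared miRNA used for scaling and 0.49 with quantile normalization. CD8+ DC exceeded PDC by 1.06, with 1.10 on design 1 and 1.03 on design 2, but by 0.38 with every shared miRNA used for scaling and 0.70 with quantile normalization. The place of CD8+ DC between CD4-CD8- DC and PDC thus moves with the scaling. The monocytes and the 3 progenitor populations have no order among themselves, since all their arrays were below background.

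**Figure D2:**
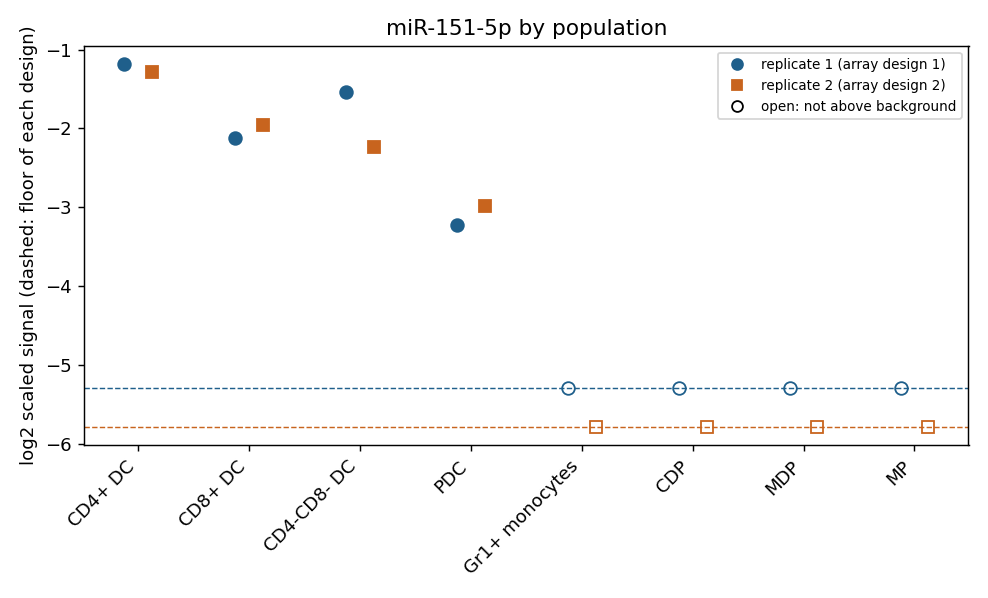
Scaled log2 signal of miR-151-5p on each array, with the floor of each array design as a dashed line; open points are not above background. The 4 DC populations stand above the floor, with CD4+ DC highest and PDC lowest among them.

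Against CDP, the DC progenitor of the marrow, miR-151-5p was higher in every DC population. Because CDP was not above background, folds are lower bounds: the dim side is set on each array to its own signal or to the lowest signal of any probe above background, whichever is higher. The bound was at least 15.5-fold in CD4+ DC, at least 9.83-fold in CD4-CD8- DC, at least 8.86-fold in CD8+ DC and at least 4.24-fold in PDC. For the mean of the 3 spleen DC populations it was at least 11.1-fold. Against Gr1+ monocytes, PDC were at least 3.94-fold higher, and the monocytes were at least 10.3-fold lower than the spleen DC mean. Normexp background correction was also run, with an offset of 50 added to every spot, which narrows log2 differences at low signal. With it, the log2 difference of PDC from Gr1+ monocytes turned to -0.17. That of the monocytes from the spleen DC was -0.78, against -3.82 without normexp. No fold can be given for Gr1+ monocytes against MDP, CDP against MDP or MDP against MP. Across the 5 differentiated populations, monocytes included, the fitted log2 difference to the 3 progenitor populations was 2.78 ± 0.12 (SE). Within the designs it was 2.62 and 2.94. Progenitors and monocytes lay at the floor, so this SE does not cover the choice of floor. With the floor lowered by 1 the difference was 3.50.

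Among the DC populations the values are measured on both sides. The SEs below come from the fit of all 16 arrays, 8 of them at the floor. With only the 8 DC arrays fitted, the SE was 0.21 for PDC against the spleen DC mean. For CD8+ DC against the other spleen DC it was 0.23. PDC differed from the mean of the spleen DC by -1.38 ± 0.19 (SE) on the log2 scale, 2.61-fold lower in PDC. Within the designs it was -1.61 and -1.16. It was -1.08 without PDC replicate 1, -1.69 without PDC replicate 2 and -0.94 with normexp background correction. With every shared miRNA used for scaling it was -1.19, and with quantile normalization -1.25. PDC replicate 2 had the largest array factor, 876. CD8+ DC differed from the mean of the other spleen DC by -0.48 ± 0.20 (SE), with -0.76 on design 1 and -0.20 on design 2. That difference was -0.22 without CD8+ DC replicate 1 and -0.74 without CD8+ DC replicate 2, and it was -1.22 with every shared miRNA used for scaling and -0.83 with quantile normalization. Its size thus depends on single arrays and on the scaling.

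Both probes of miR-151-5p gave the same picture. They cover the same site, from 73085257 and 73085256 to 73085272, so they are not independent readings. The longer one was 1.72 to 2.15 times as bright as the shorter one on the 8 DC arrays, with a median of 1.85. After scaling, both probes ranked the 4 DC populations in the same order on design 1, and likewise on design 2, where CD8+ DC lay above CD4-CD8- DC.

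miR-151-3p was not above background on any array. Of 314 used spots, 0 were well above background, and the scanner software's call was detected on 0 of 16 arrays. Its signal ran from -5.44 to -0.66 on the DC arrays and from -4.44 to -2.31 on the others, so the ranges overlap. The probe with the highest reading was the one of 14 bases, which reached 1.87 on a DC array without any spot well above background. No difference between populations, and no change in the balance of the arms, can therefore be given: on DC arrays miR-151-5p was measured and miR-151-3p was not, and on the other arrays neither was. Of the 87 miRNAs whose longest probe had 14 bases or fewer, miR-151-3p included, 40 (46.0%) were above background on at least 1 array, against 34.9% of all 604. Whether the short probes played a part in the missing miR-151-3p signal was not tested.

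Reading 1 arm alone was common on this platform. Of 167 miRNAs with both arms on the arrays, 42 (25.1%) had 1 arm above background on at least 8 arrays and the other on 0, among them miR-151, miR-28, miR-126, miR-21 and miR-16. Both arms were tested for 16 pairs. In those, the difference between the arms, centred per design, varied over the 8 populations by a median of 1.47 on the log2 scale. It varied most for miR-342 (4.38), miR-139 (2.70) and miR-362 (2.66). The 5p arm of each of these 3 was above background on 7, 5 and 3 arrays, so these ranges and their ranking are set in part by the floor. It varied least for miR-140 (0.30), miR-30e (0.43) and miR-106b (0.63). Both arms of miR-140 were above background on 16 arrays. The star arms of miR-30e and miR-106b were above background on 9 and 5, so the floor may also enter these 2 ranges. Both arms of miR-142, a blood cell miRNA, were above background on all 16 arrays and their difference varied by 0.64.

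miR-28, the 5p strand, was above background on the same 8 DC arrays as miR-151-5p and on none of the others. The scanner software's own call also counted it as detected on MP replicate 2, giving 9 of 16 arrays. CD4+ DC had log2 signals of -3.76 and -3.80, CD4-CD8- DC -3.80 and -4.12, PDC -4.90 and -4.66, and CD8+ DC -4.72 and -4.91. The other 4 populations lay at the floor, and miR-28 entered the tested miRNAs only through the DC populations, so differences against them are given as bounds, with no test. Over the 8 arrays not above background they are at least 2.34-fold in CD4+ DC, 2.07-fold in CD4-CD8- DC, 1.18-fold in PDC and 1.14-fold in CD8+ DC. Among the DC populations both sides were above background, though not on all spots. In CD8+ DC 8 of 19 and 10 of 18 used spots were well above background, and 7 of 16 on PDC replicate 1. The shorter probe, of 19 bases, had 0 of 9 and 2 of 10 such spots in CD8+ DC. On PDC replicate 1 it had 0 of 9. Its signal was averaged in all the same. The difference of CD8+ DC from the other spleen DC was -0.94 (limma, adjusted p = 0.00246), and 7.43% of tested miRNAs were called lower. It was -1.51 with every shared miRNA used for scaling and -1.54 with quantile normalization. PDC differed from the spleen DC by -0.59 (limma, adjusted p = 0.0113; 24.6% called lower), a call lost without the replicate block (0.0615), without PDC replicate 1 (0.147), with every miRNA used for scaling (0.110) and with quantile normalization (0.0752). CD4+ and CD4-CD8- DC differed by 0.18 ± 0.18 (SE; limma, adjusted p = 0.739), which did not pass the test, as for all but 4.57% of tested miRNAs. These fits take their spread from all 16 arrays, 8 of them at the floor for miR-28. With only the 8 DC arrays fitted, the adjusted p (limma) was 0.0213 for CD8+ DC and 0.0331 for PDC. For CD4+ against CD4-CD8- DC it was 0.704. With normexp background correction neither call passed (limma, adjusted p = 1 for CD8+ DC and 0.875 for PDC). The signals of miR-28 on the DC arrays were only 14.8 to 56.7, against the normexp offset of 50.

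The log2 difference between miR-151-5p and miR-28 was not the same in all DC. It was 2.55 ± 0.04 in CD4+ DC, 2.78 ± 0.25 in CD8+ DC, 2.07 ± 0.26 in CD4-CD8- DC and 1.67 in both PDC arrays. These differences show how the difference moves between populations and are not relative amounts; their variation was not tested. The probes of the 2 miRNAs share a run of 15 bases. The part of that shared run in the miR-28 signal was not tested.

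**Figure D3:**
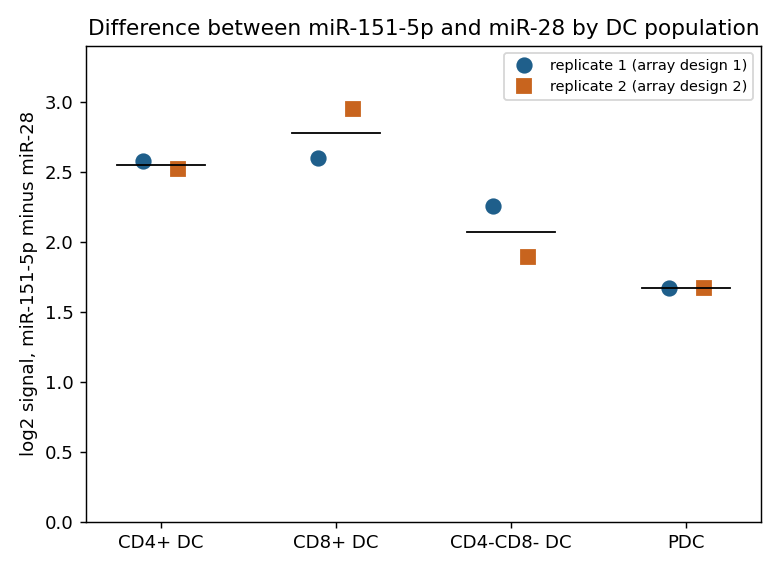
Log2 signal of miR-151-5p minus that of miR-28 on the 8 DC arrays; points are arrays and bars are means of 2. CD8+ DC averaged 2.78, and PDC 1.67, the lowest of the 4 populations.

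miR-28*, miR-708 and miR-708* were not above background on any array. The scanner software's call did count miR-28* as detected on 3 arrays, both of CD4+ DC and replicate 2 of PDC, with signals of -0.21, 4.55 and 2.59.

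Across the 16 arrays, with each design's mean removed, the tested miRNAs most like miR-151-5p by Pearson's r were miR-146a (0.99), miR-29a (0.95), miR-28 (0.94), miR-29c (0.93) and miR-142-5p (0.93). The 16 points share designs, scaling and, for miR-151-5p and miR-28, 8 values at the floor, and no p is given. miR-146a, known as a brake on Toll-like receptor signalling, was above background on all arrays, with mean log2 signals of 1.15 in CD4+ DC, 0.62 in CD4-CD8- DC, 0.35 in CD8+ DC and -1.07 in PDC, against -4.54 in Gr1+ monocytes and -4.84 in CDP. CD4+ DC were highest and PDC lowest of the DC for both miRNAs. miR-29a, by contrast, had 1.55 in PDC, close to the 1.47 of CD4-CD8- DC. Only miR-28 and miR-29b* shared with miR-151-5p the pattern of all 8 DC arrays and 0 others, and miR-29b* had r = 0.29.

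**Figure D4:**
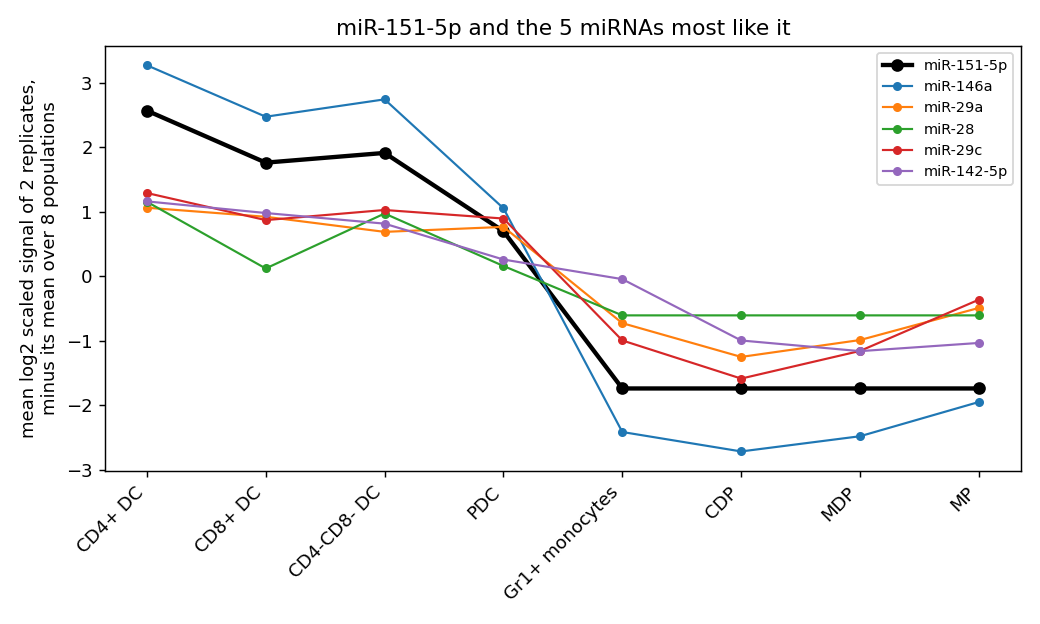
Mean log2 signal of 2 replicates in each population, minus its mean over the 8 populations, for miR-151-5p and the 5 miRNAs most like it. All 6 lie higher in the DC populations than in CDP; miR-151-5p and miR-28 lie at the floor in the other 4 populations.

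Of the miRNAs of other blood cells, miR-150 moved with the same split, and so did the summed erythroid list except on MP replicate 1. Lymphocyte miR-150 had log2 values between -2.49 and -0.12 on the DC arrays, against -5.74 to -3.99 on the monocyte and progenitor arrays. The erythroid list (miR-451, miR-144 and miR-486) had a summed scaled signal of 0.130 to 1.29 on DC arrays and 0.0246 to 0.536 on the others. The 0.536 was on MP replicate 1, and MP replicate 2 had 0.0295. The highest sums were 0.0481 in Gr1+ monocytes, 0.0404 in CDP and 0.0288 in MDP. miR-144 was not above background on any array. The part of these cells in the miR-151-5p result was not tested.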

How the data were processed

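Per the file headers, spot intensity came from Agilent Feature Extraction 10.7.3.1 with its background removed; version 9.1 stands in the submitters' processing notes. The processed signal intensity is used as deposited, on a linear scale and not scaled between arrays. Replicate 1 of every population was on array design 1 and replicate 2 on design 2, so replicate, design, slide and scan are 1 split, kept as a block. Deviations of same-numbered arrays correlated in all 28 pairs of populations (r 0.297 to 0.917).

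Outlier spots were dropped, spots averaged per probe and probes per miRNA. Scaling used the 75th percentile over 88 miRNAs above background on all arrays; values were then floored at the design's median 5th percentile of detected values and logged. The 175 miRNAs above background on both arrays of a population were fitted with limma 3.58.1 (R 4.3.3), a mean per population and the design block, and Benjamini-Hochberg adjustment per comparison. The fit was tested on simulated data. The number of arrays limits the precision. Named miRNAs are the arms, their miR-28 and miR-708 relatives, the 5 most alike, the pairs of arms with the widest and narrowest differences with miR-142, miR-126 and miR-139, and marker miRNAs; miR-21, miR-16 and miR-29b* were added after their values were seen. The members and lists were chosen with earlier results of these data known. Alternatives were other scalings, background corrections, floors, filters, probe summaries and each array left out. The total gene signal, the software's detection call, the rule of 1 spot and the fit of only the DC arrays were chosen after seeing the data.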

Additional observations from a re-analysis of the deposited data

How the results depend on the processing

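The log2 difference of miR-151-5p between the 5 differentiated and the 3 progenitor populations (2.78) was 1.15 with normexp background correction, 2.47 with the brightest probe, 3.50 with the floor lowered by 1 and 3.06 with the software's total gene signal. For PDC against CDP (2.44) the same settings gave 0.62, 2.11, 3.44 and 2.78, and for the spleen DC mean against CDP (3.82) they gave 1.56, 3.42, 4.82 and 4.17. These differences are set against a floor, so they move with it by construction. The normexp setting added an offset of 50 to every spot before logging, which by construction narrows log2 differences at low signal. For the remaining settings the cause was not tested. Leaving out 1 array gave 2.72 to 2.84, 2.14 to 2.74 (the ends without PDC replicate 2 and without PDC replicate 1) and 3.71 to 3.93. Without the replicate block the values were 2.78, 2.44 and 3.82. PDC against Gr1+ monocytes turned sign under normexp, to -0.17 for miR-151-5p and -0.80 for miR-28. For miR-28, normexp also turned CD8+ DC against the other spleen DC to 0.029 and Gr1+ monocytes against the spleen DC to 0.58, and without the replicate block PDC against spleen DC no longer passed (limma, adjusted p = 0.0615). Over the 3 tested contrasts of miR-28, 22 of 27 values under other settings and 47 of 48 with an array left out stayed on their side of the threshold. The fit without the filter used 209 miRNAs, since 395 lay at the floor on all arrays. miR-151-3p was above background on 0 arrays by the spot rule, the software's call, and a rule of at least 1 spot. Its contrasts, the arm difference, and miR-151-5p among only the 88 miRNAs on all arrays gave no value. The method's limit is signal over background: at 0 spots of 314, miR-151-3p was not detectable here.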
